A study of Rattus with 9 samples.

Results

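Bile duct tissue taken at day 7 after liver transplantation (LT) was compared with tissue taken at day 1, with single-cell RNA sequencing. Each day is 1 of the 9 samples in the series and holds 3 libraries, so the comparison rests on 2 samples with 6 libraries, named here by day and library number. The series also holds sham-operated rats, day 3 post-LT and an arm with raised hepatic arterial flow. Of these, the 3 sham libraries are given below as background over all cells, and the rest is not analysed here. The rats were of the Sprague-Dawley strain. Both days were transplanted with warm ischemic injury of the graft and kept the arterial flow they had after LT, so they differ in the day alone as far as the labels say. The labels give no age and name no animal for a library. The p-values therefore measure only the spread between the 3 libraries of a day, which may be technical. The 3 libraries of a day were deposited as 1 sample, and a difference in handling between the 2 samples and the difference in day cannot be told apart.

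A barcode was kept as a cell with more than 400 and fewer than 6000 genes, mitochondrial transcripts under 25% and hemoglobin transcripts under 3% of its unique molecular identifiers (UMIs), which count RNA molecules. This gave 6884, 3178 and 3729 cells at day 1 and 13267, 7350 and 13575 at day 7, or 47983 in all, with 26213824 to 64935040 UMIs in the cells of a library and medians of 2912 to 4048 UMIs per cell. Pairs of libraries shared 0.0944% to 0.494% of their cell barcodes. Cells marked as doublets (3377) were left out of the classes. Clusters took names from marker genes, and a name such as BEC-like (biliary epithelial cell) says only that markers of that type led the cluster. Of 35 clusters, 27 were named. Day 7 library 2 stood apart from the other day 7 libraries, with 52.8% monocyte/macrophage-like cells and few BEC-like, B-like and NK&T-like cells, and day 1 library 2 held the highest share of neutrophil-like cells (42.8%). Counts of genes are therefore given below also without each library.

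An ischemic graft first meets a wave of neutrophils and monocytes drawn by chemokines. Lymphocytes of the recipient follow, and their interferon-gamma switches on antigen-presenting genes and the chemokines Cxcl9, Cxcl10 and Cxcl11 in tissue cells. Biliary fibrosis is the deposition of collagen and other matrix by fibroblasts and related mesenchymal cells, which TGF-beta is known to promote. Low oxygen switches on glycolysis genes through hypoxia-inducible factor (HIF). The comparison asks how these programs stood in each cell class at day 7 against day 1.

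BEC-like shares were lower and NK&T-like shares higher at day 7, while in day 7 library 2 lymphocytes stayed few. BEC-like cells made up 17.6%, 33.1% and 48.3% of the cells at day 1, and 11.1%, 1.80% and 10.8% at day 7. NK&T-like cells, which join natural killer and T cells, made up 3.54%, 0.835% and 4.2% at day 1, and 27.9%, 4.52% and 32.3% at day 7. For both classes the 2 days did not overlap, and the two-sided exact permutation test gave p = 0.1, the smallest that 3 libraries against 3 allow, so no share could pass 0.05. B-like cells had 0.999%, 0.0668% and 0.0863% at day 1 and 16.1%, 0.558% and 22.3% at day 7. They were abundant in 2 of the 3 day 7 libraries, while day 7 library 2 lay between the day 1 libraries (p = 0.2, exact permutation test). The day 1 values were 64, 2 and 3 cells, against 64, 13 and 27 before doublets were left out, so the shares of day 1 libraries 2 and 3 depend on the marking of doublets. Plasma-like cells, which secrete antibodies, were not found among 6404, 2995 and 3478 cells at day 1, which allows shares of up to 0.0468%, 0.10% and 0.0863% (3 cells, counting error only). At day 7 they made up 1.07%, 0.117% and 0.636%.

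Monocyte/macrophage-like and neutrophil-like shares overlapped between days. Monocyte/macrophage-like cells were 22.8%, 7.35% and 4.80% of the cells at day 1 and 21.9%, 52.8% and 16.5% at day 7 (p = 0.3, exact permutation test). Neutrophil-like cells were 29.6%, 42.8% and 9.29% at day 1 and 6.79%, 19.7% and 2.15% at day 7 (p = 0.2, exact permutation test). DC-like cells (dendritic cells) had 1.73%, 0.10% and 0.431% at day 1 and 2.12%, 2.0% and 2.59% at day 7, with no overlap. A cluster left unnamed, with the DC markers Clec9a, Ccr7, Fscn1 and Batf3 detected, is not counted in these shares. With doublets in, it held 278, 1 and 21 cells at day 1 and 16, 11 and 20 at day 7. The DC-like cluster then held 124, 3 and 16 cells and 270, 138 and 336, so the lack of overlap holds for the named cluster only. Fibroblast-like (1.18% to 5.12%), blood EC-like (endothelial cells of blood vessels, 1.61% to 6.19%) and mural-like cells (pericytes and smooth muscle, 0.580% to 4.83%) had overlapping shares at the 2 days. Lymphatic EC-like cells did not overlap, with 0.0625%, 0.0668% and 0.0575% at day 1 and 0.276%, 0.660% and 0.485% at day 7 (p = 0.1, exact permutation test), from 4, 2 and 2 cells at day 1 and 34, 45 and 61 at day 7. Before doublets were left out their cluster held 33, 4 and 26 cells at day 1 and 36, 53 and 68 at day 7, and the shares then overlapped, so the separation rests on the marking of doublets. Shares sum to a fixed total, so a rise in 1 class lowers the others.

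**Figure D1:**
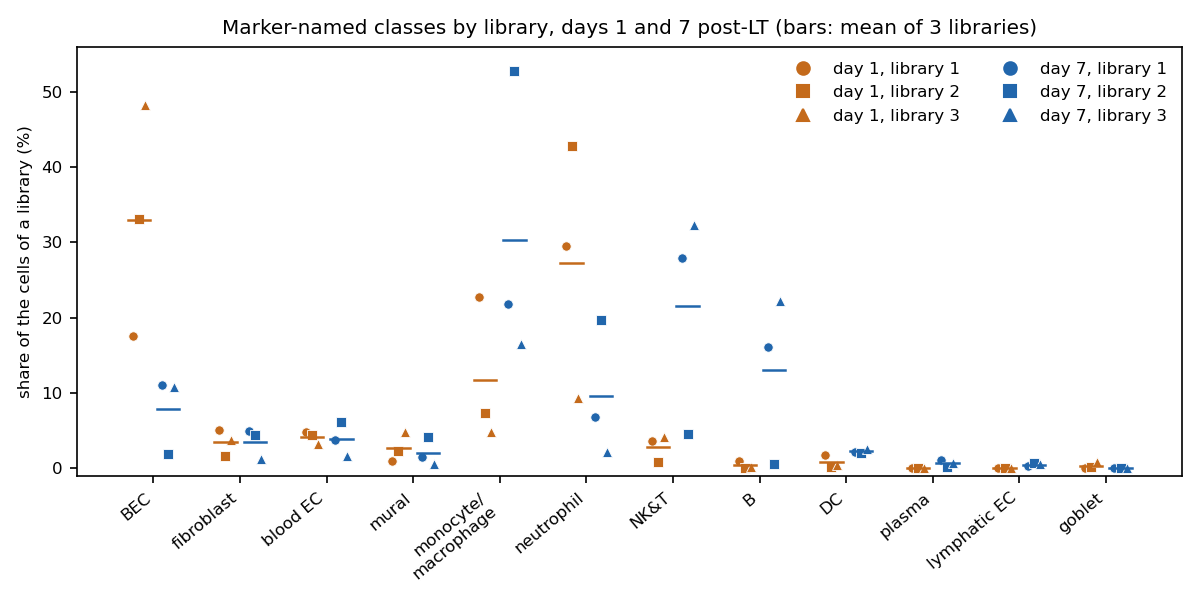
Share of each marker-named class among the cells of a library (y axis, %), with day 1 in orange and day 7 in blue, symbols for library numbers and bars for the mean of 3 libraries. BEC-like cells sat at 17.6% to 48.3% at day 1 and at 1.80% to 11.1% at day 7, while NK&T-like cells sat at 0.835% to 4.2% and at 4.52% to 32.3%.

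Genes were tested between the days on 1 UMI sum per library and class, with libraries as replicates. A gene near 0 on 1 day could enter a test only through its counts on the other day. Counts and medians of the gene lists below therefore lean towards genes that differed. By edgeR, the mesenchymal classes had the most genes at an adjusted p under 0.05. By DESeq2 and voom, fibroblast-like cells still had the most of the classes, with 1631 and 2111 genes. BEC-like cells then stood above mural-like cells, with 860 against 794 genes by DESeq2 and 1510 against 1247 by voom. The counts that follow are from edgeR. In fibroblast-like cells, 880 of 8961 genes tested (9.82%) were higher at day 7 and 647 (7.22%) lower at an adjusted p under 0.05, and in mural-like cells 455 of 7508 (6.06%) were higher and 198 (2.64%) lower. In blood EC-like cells, 122 of 7730 (1.58%) were higher and 86 (1.11%) lower. In BEC-like cells, 39 of 11753 (0.332%) were higher and 11 (0.0936%) lower. In NK&T-like cells, 21 of 6493 (0.323%) were higher and 11 (0.169%) lower. In monocyte/macrophage-like cells, 4 of 10193 (0.0392%) were higher and 4 (0.0392%) lower. In neutrophil-like cells, 2 of 5240 (0.0382%) were higher and 0 (0%) lower by edgeR, where 376 genes had an unadjusted p under 0.05, and DESeq2 called 65 and voom 3. Over all cells of a library, 51 of 14403 genes (0.354%) were higher and 38 (0.264%) lower. These percentages are the background for the counts of list genes given below. B-like cells were not tested, since only 1 day 1 library held 20 of them.

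These counts rested on single libraries to different degrees. In fibroblast-like cells the 1527 genes became 618, 1253 and 632 without day 1 libraries 1, 2 and 3, and 665, 1459 and 502 without day 7 libraries 1, 2 and 3. In mural-like cells the 653 genes became 873, 197 and 378 without day 1 libraries 1 to 3, and 341, 454 and 237 without day 7 libraries 1 to 3. In blood EC-like cells the 208 became 1100, 0 and 1 without the day 1 libraries, and 47, 64 and 3 without the day 7 libraries, in the same order. In BEC-like cells the 50 became 345, 0 and 0, and 1, 464 and 0. Over all cells the 89 became 1144, 0 and 0, and 0, 580 and 0. In NK&T-like cells the 32 became 59, 3 and 4, and 49, 88 and 17. In monocyte/macrophage-like cells the 8 became 0, 6 and 0, and 7, 142 and 2, and in neutrophil-like cells the 2 became 29, 1 and 1, and 46, 4 and 1. The fibroblast-like and mural-like classes were thus the only classes with more than 100 genes past the threshold whichever library was left out.

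**Figure D2:**
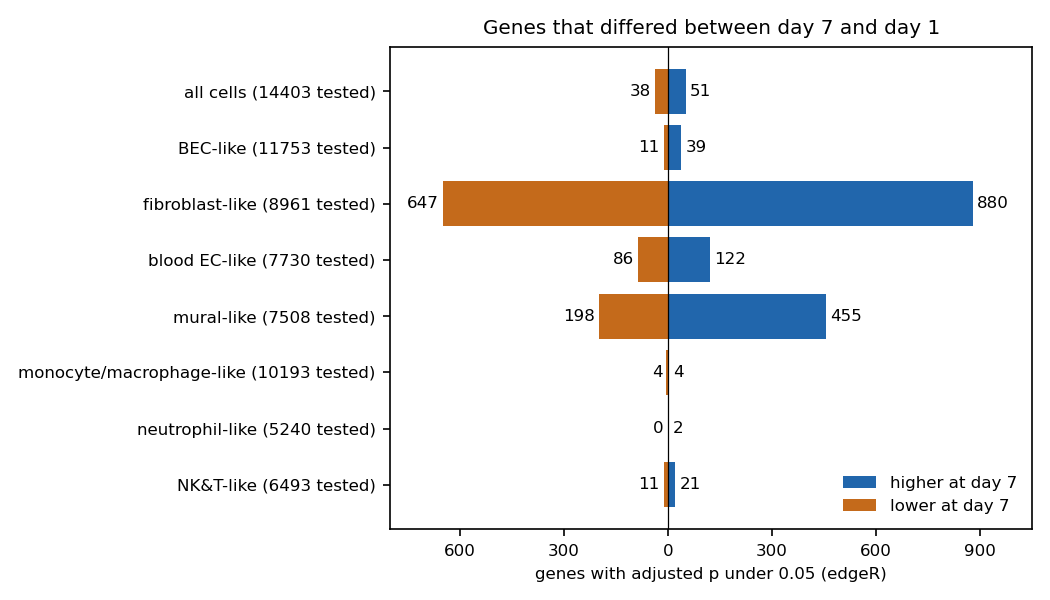
Genes with an adjusted p under 0.05 in each class (x axis, number of genes), higher at day 7 to the right in blue and lower to the left in orange, with the number tested beside each class. Fibroblast-like cells had 880 and 647 such genes, against 39 and 11 in BEC-like cells.

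In fibroblast-like cells, matrix genes rose together. Values are in CPM, the UMIs of a gene with the UMIs of the class in each library scaled to the same total, and folds are from edgeR with its TMM scaling, under which the median log2 fold change of all genes tested was 0.11. At day 1, 97.43% of these cells lay in a cluster led by Mgp and Ptx3. At day 7, 97.35% lay in one led by Col3a1 and Col1a1, so the 2 days were held by different clusters. The libraries gave 328, 48 and 130 cells at day 1 and 603, 303 and 149 at day 7. Col1a1, a chain of collagen I, had 1297, 2413 and 2300 CPM at day 1 and 12760, 19846 and 15740 CPM at day 7 (log2 fold change 2.95, SE 0.32, adjusted p = 0.00209). Col3a1, which forms collagen III, had 1556, 3629 and 4000 CPM and then 26524, 17906 and 26182 CPM (log2 fold change 2.88, SE 0.35, adjusted p = 0.00318). Both are among the 9 markers that named the class, and the groups did not overlap. Col11a1, a minor collagen that regulates fibril width, had no UMI in the 3 day 1 libraries and 84.2, 240 and 34.0 CPM at day 7, at least 346-fold higher against 3 UMIs over the group (adjusted p = 0.0207). Of 23 genes in the list of collagens and their cross-linking enzymes, 15 rose and 0 fell, with a median log2 fold change of 1.95. Col5a3, Col6a1, Col6a2 and Col12a1 were among them, while Col4a1 of the basement membrane (245, 376 and 267 CPM against 381, 630 and 380) did not pass (adjusted p = 0.214). Without day 1 library 1 the list had 5 such genes, and without day 1 library 3 it had 8. Without each of the other libraries it had 11 to 14. Col1a1 and Col3a1 kept the call with any library left out, while Col11a1 lost it without day 1 library 1 or day 7 library 1.

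Glycoproteins and proteoglycans of the matrix followed. Fn1 (fibronectin) had 174, 195 and 262 CPM at day 1 and 2983, 1333 and 2955 CPM at day 7 (log2 fold change 3.43, SE 0.36, adjusted p = 0.00199). Thbs2, a thrombospondin of healing tissue, had 12.3, 15.9 and 16.3 CPM and then 468, 715 and 291 CPM (log2 fold change 4.99, SE 0.43, adjusted p = 0.00191). Cthrc1, a secreted protein of remodelling tissue, had 79.5, 90.4 and 113 CPM and then 1909, 1187 and 855 CPM (log2 fold change 3.73, SE 0.37, adjusted p = 0.00193). All 3 kept the call with any library left out. Postn (periostin), Sparc, Bgn, Lum and Ogn also passed, with log2 fold changes of 2.41 to 3.36. Sparcl1 was the list member that fell, from 33.5, 106 and 88.6 CPM to 21.4, 10.3 and 37.4 CPM (log2 fold change -1.80, SE 0.49, adjusted p = 0.0383), a call lost without day 1 library 2 or 3 or day 7 library 1 or 2. Dcn (decorin), a defining fibroblast gene, did not pass, with 2602, 6142 and 5949 CPM against 3555, 2659 and 3325 CPM (adjusted p = 0.157). Of the 21 genes, 12 rose and 1 fell, with a median of 2.46. Leaving out day 1 library 1, 2 or 3 gave 9, 8 and 8 calls, and leaving out day 7 library 1, 2 or 3 gave 13, 12 and 10. Markers of mural cells moved in the same direction in these cells. Their sum over the 10 mural markers was 72.9 to 117 CPM at day 1 and 746 to 2486 CPM at day 7, and 5 of 7 tested rose. Mesothelial markers summed to 20.6 to 77.6 CPM and then 151 to 634 CPM, with 1 of 2 tested rising and Calb2 at 0 in every library. The part of these cells in the matrix genes was not tested.

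Some TGF-beta genes and protease inhibitors were called in fibroblast-like cells, in both directions. Ccn2, a matricellular target of TGF-beta, had 17.4, 14.3 and 14.7 CPM at day 1 and 154, 251 and 151 CPM at day 7 (log2 fold change 3.45, SE 0.34, adjusted p = 0.00193). The ligand Tgfb3 had 6.95, 9.51 and 16.8 CPM and then 102, 36.6 and 64.6 CPM (log2 fold change 2.54, SE 0.44, adjusted p = 0.00925), and Tgfb2 also rose (1.80, SE 0.41). The ligand Tgfb1 had 20.1, 50.7 and 40.2 CPM against 35.4, 42.2 and 27.9 CPM, which overlapped (log2 fold change -0.06, SE 0.34). Id1, an inhibitor of transcription factors downstream of BMP signals, fell. In all, 3 of 21 TGF-beta genes rose and 2 fell (median 0.28), shares near those of all genes tested in the class (9.82% higher and 7.22% lower), and the list had 3 to 5 calls, not always of these genes, with 1 library left out. Ccn2 kept the call with any library left out, Tgfb3 lost it without day 1 library 1, and Id1 kept it without day 1 library 1 only. Timp1, an inhibitor of metalloproteinases, fell from 20617, 22431 and 19782 CPM to 2113, 6607 and 2385 CPM (log2 fold change -2.56, SE 0.47, adjusted p = 0.0114). Its relative Timp2 rose from 291, 371 and 390 CPM to 973, 1015 and 1029 CPM (log2 fold change 1.44, SE 0.25, adjusted p = 0.00849). The 2 inhibitors went in opposite directions with no overlap between days, and Timp1 lost the call without day 1 library 1. Of 10 metalloproteinases and inhibitors, 1 rose and 2 fell, against 9.82% and 7.22% of all genes of the class.

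The 6 genes named by size among those that fell in fibroblast-like cells were Reg3g, Cxcl14, Ptges, Dnph1, Mt2A and Ptx3. Reg3g, an antimicrobial lectin of epithelium, fell from 89.1, 279 and 140 CPM to 13.2, 2.07 and 1.36 CPM (log2 fold change -4.75, SE 0.81, adjusted p = 0.0130), and it could not be tested after subtraction of free RNA, the RNA outside cells that droplets pick up. Ptx3, a secreted pentraxin of inflammation, fell from 4307, 2426 and 874 CPM to 114, 579 and 362 CPM (log2 fold change -2.99, SE 0.80, adjusted p = 0.0431), and it lost the call without day 1 library 1 or 2 or day 7 library 1 or 3. Ptges, which makes prostaglandin E2, fell from 63.2, 415 and 261 CPM to 16.4, 19.8 and 10.9 CPM (log2 fold change -3.94, SE 0.62, adjusted p = 0.00869). The chemokine Cxcl14 fell from 323, 512 and 152 CPM to 12.5, 22.4 and 21.1 CPM (log2 fold change -4.23, SE 0.49, adjusted p = 0.00318). The metal-binding Mt2A fell from 4431, 5154 and 2192 CPM to 600, 272 and 625 CPM, or 8.55-fold, and Dnph1, a nucleotide hydrolase, fell 9.12-fold. Ptges, Cxcl14, Mt2A and Dnph1 kept the call with any library left out. Il4r, a receptor chain for interleukin-4 and -13, fell (log2 fold change -1.55, SE 0.28), whereas Lbp, which binds bacterial lipopolysaccharide, rose (2.72, SE 0.53) and lost the call without day 1 library 1 or 3. They were the 2 of 11 genes of the interleukin-6 and STAT3 list to pass, again near the share of all genes (9.82% higher and 7.22% lower).

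Glycolysis genes fell as a group. Ldha (lactate dehydrogenase) fell from 2241, 3036 and 2854 CPM to 418, 500 and 399 CPM (log2 fold change -2.70, SE 0.27, adjusted p = 0.00193). Pgk1 fell from 719, 1671 and 1563 CPM to 180, 314 and 210 CPM (log2 fold change -2.53, SE 0.37, adjusted p = 0.00537), and the glucose transporter Slc2a1 fell from 16.0, 140 and 68.5 CPM to 4.68, 14.8 and 7.49 CPM (log2 fold change -2.99, SE 0.78, adjusted p = 0.0388). Slc2a1 lost the call without day 1 library 2 or 3 or day 7 library 1 or 3, whereas Ldha and Pgk1 kept it with any library left out. Of 12 glycolysis genes tested, 10 fell and 0 rose, with a median log2 fold change of -2.61. The count was 9, 8 and 7 without day 1 libraries 1 to 3 and 7, 11 and 6 without day 7 libraries 1 to 3. Of 18 HIF targets, 5 fell, which were Slc2a1, Ldha, Pgk1, Bnip3 and Pdk1, against 7.22% of all genes of the class. Slc2a1, Ldha and Pgk1 are also on the glycolysis list, so the 2 lists are not separate results. Vegfa (101, 899 and 345 CPM against 351, 151 and 296 CPM) overlapped between the days. Without the single libraries the HIF list had 2 to 7 calls, with 2 when day 1 library 3, day 7 library 1 or day 7 library 3 was left out and 7 without day 1 library 1. The replication genes Mcm2, Mcm3, Mcm5, Mcm6, Mcm7, Ccne1 and Tyms fell, which was 7 of 27 cell cycle genes, against 7.22% of all genes of the class. Without day 1 libraries 1 to 3 the list had 1, 7 and 2 calls. It had 3, 7 and 3 without day 7 libraries 1 to 3. Mcm6, a helicase subunit, went from 49.5, 50.7 and 43.5 CPM to 11, 13 and 18.4 CPM (log2 fold change -1.90, SE 0.29, adjusted p = 0.00626). The mitotic gene Mki67 had 10.6, 9.51 and 10.9 CPM against 7.68, 26.9 and 18.4 CPM (adjusted p = 0.366), and the median of the cell cycle list was -0.09 under TMM, -0.18 under the size factors of DESeq2 and 0.02 with library sizes alone.

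**Figure D3:**
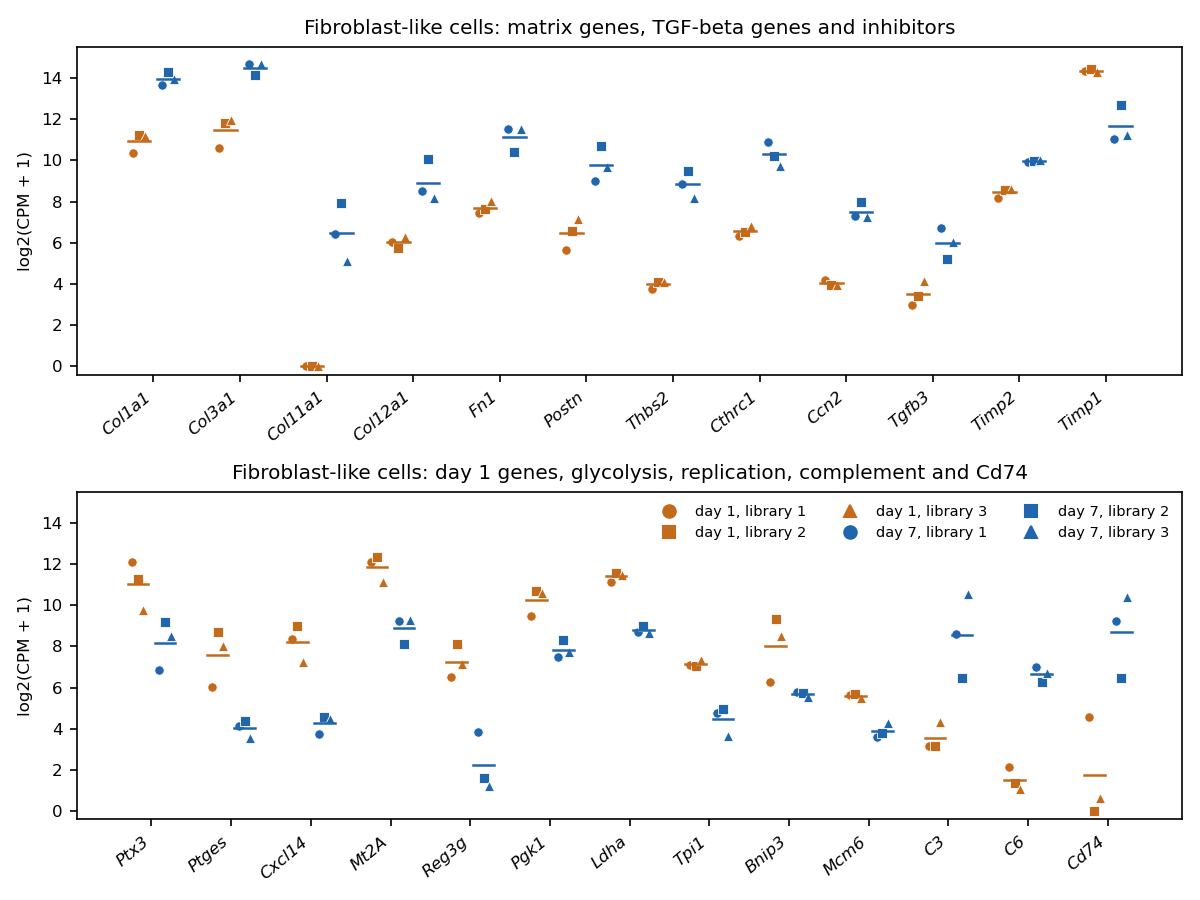
Levels of matrix, inflammatory and metabolic genes in fibroblast-like cells as log2(CPM + 1) (y axis), with day 1 in orange, day 7 in blue, a symbol for each library number and bars for the mean of 3 libraries. Thbs2 sat at 12.3 to 16.3 CPM at day 1 and at 291 to 715 CPM at day 7, while Ldha sat at 2241 to 3036 CPM and at 399 to 500 CPM.

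Interferon-induced genes and antigen presentation rose in fibroblast-like cells. Cxcl9, a chemokine for activated T cells that interferon-gamma induces, had 7.29, 0 and 2.72 CPM at day 1 and 882, 78.0 and 1630 CPM at day 7 (log2 fold change 7.34, SE 1.33, adjusted p = 0.0164). The call was lost without day 1 library 1 or 3 or day 7 library 1, and Cxcl10 also rose. Of 26 interferon-stimulated genes, 14 rose (against 9.82% of all genes of the class), with a median of 2.90, among them Irf1, Gbp2 and Ifi47. Without day 1 libraries 1 to 3 the count was 5, 9 and 7, and without day 7 libraries 1 to 3 it was 16, 12 and 12. Of 11 class II genes on the list, 5 had counts enough to be tested, and all 5 rose. Genes near 0 at day 1 could enter the test only through their day 7 counts, so this count favours genes that rose. Cd74, the invariant chain of MHC class II, had 23.1, 0 and 0.543 CPM at day 1 and 599, 86.8 and 1354 CPM at day 7 (log2 fold change 5.79, SE 1.5, adjusted p = 0.0420). RT1-Da had 12.8, 1.59 and 0.543 CPM and then 360, 86.8 and 895 CPM (log2 fold change 5.85, SE 1.23, adjusted p = 0.0244). Both lost the call without day 1 library 2 or 3 or day 7 library 1 or 3. The class II calls were 3, 2 and 2 without day 1 libraries 1 to 3, and 2, 5 and 2 without day 7 libraries 1 to 3, and with doublets kept they were 4. Macrophage markers in these cells summed to 1.63 to 47.1 CPM at day 1 and to 32.5 to 246 CPM at day 7 (0 of 3 tested rose). T cell markers summed to 0 to 1.22 CPM and to 3.25 to 124 CPM, with Cd5 and Trat1 at 0 in every library and none of the 10 tested. Their part in the class II genes was not tested. After subtraction of free RNA, which does not take out cells of other types or doublets, all 5 class II genes were still called. Of 14 class I genes, 6 rose (against 9.82% of all genes of the class), among them B2m and the immunoproteasome subunits Psmb8 and Psmb9. B2m had 1421, 1333 and 1124 CPM at day 1 and 6927, 3381 and 16161 CPM at day 7 (log2 fold change 2.63, SE 0.51, adjusted p = 0.0137), a call lost without day 1 library 1 or 3. The class I calls numbered 1, 2 and 0 without day 1 libraries 1 to 3, and 5, 8 and 5 without day 7 libraries 1 to 3. The RT1 genes form a family with near-identical copies, so how reads were split among them is uncertain.

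Complement genes rose in the same cells. C3, the central component, had 7.81, 7.93 and 19.0 CPM at day 1 and 390, 88.6 and 1473 CPM at day 7 (log2 fold change 5.65, SE 1.09, adjusted p = 0.0192). C6, of the membrane attack complex, had 3.47, 1.59 and 1.09 CPM and then 125, 75.6 and 103 CPM (log2 fold change 5.14, SE 0.45, adjusted p = 0.00191), and C7 rose as well. C3 and C7 lost the call without day 1 library 1, while C6 kept it with any library left out. Of 16 genes, 6 rose and 0 fell, against 9.82% and 7.22% of all genes of the class. The count was 2, 5 and 5 without day 1 libraries 1 to 3 and 4, 9 and 4 without day 7 libraries 1 to 3. Prss35, a secreted serine protease relative, was at 0.174, 0 and 3.26 CPM and then at 131, 116 and 62.6 CPM, or 93.5-fold higher (adjusted p = 0.00403), and kept the call with any library left out. The day 1 libraries all lay below the day 7 libraries for C3, C6 and Prss35. Of the genes named by size in fibroblast-like cells, Col11a1, Cxcl9, RT1-Da, RT1-Ba, Cd74 and Ptx3 were not called without a filter on low counts, and Cd74 and Reg3g were not called with doublets kept.

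In mural-like cells, interferon-stimulated and cell cycle genes rose. The libraries held 58, 66 and 168 of these cells at day 1 and 181, 279 and 73 at day 7, in a single cluster. At a finer resolution of 2, and with doublets still in, there were 2 mural-like clusters, a first led by Mgp and Igfbp7, with Rgs5 among its leading genes, and a second led by Tagln and Acta2. The first held 45, 22 and 56 cells at day 1 and 148, 272 and 54 at day 7, and the second 65, 55 and 110 and then 55, 8 and 14, so the makeup of the class differed between the days. Of 32 interferon-stimulated genes on the list, 24 had counts enough to be tested. Of these, 17 rose, against 6.06% of all genes of the class, with a median log2 fold change of 4.18. Genes near 0 at day 1 could enter the test only through their day 7 counts, so the count and median favour genes that rose. Gbp2, a guanylate-binding protein, had 3.98, 3.87 and 3.02 CPM at day 1 and 155, 81.6 and 420 CPM at day 7 (log2 fold change 5.81, SE 0.70, adjusted p = 0.00544). Irf1, a transcription factor of the interferon response, had 35.8, 52.2 and 60.9 CPM and then 234, 190 and 395 CPM (log2 fold change 2.38, SE 0.33, adjusted p = 0.00577). Both kept the call with any library left out. Cxcl9 had 2 UMIs in all at day 1 and 886, 317 and 1768 CPM at day 7, a ratio of 1136 (95% counting interval 314 to 9381, adjusted p = 0.00258). Cxcl11, Ubd (a ubiquitin-like modifier) and Ccl5 had 1, 1 and 2 UMIs at day 1, with ratios of 450, 437 and 98.4 and lower bounds of 80.4, 78.2 and 27.0. All 3 lost the call without any 1 of the day 1 libraries, Ccl5 also without day 7 library 1, and Ubd also without day 7 library 1 or 3. Ubd and Ccl5 were no longer tested after subtraction of free RNA, while Cxcl9 and Cxcl11 still passed. NK cell markers in these cells summed to 0 to 0.994 CPM at day 1 and 3.15 to 87.9 CPM at day 7, with Ncr1, Eomes and Klre1 at 0 in every library. Monocyte markers summed to 15.7 to 21.3 CPM and 36.7 to 119 CPM (1 of 2 tested rose). T cell markers summed to 0.994 to 4.82 CPM and 17.5 to 35.4 CPM (0 tested). The part of such cells was not tested. Without day 1 libraries 1 to 3 the list had 11, 8 and 8 calls and without day 7 libraries 1 to 3 it had 20, 12 and 12. With doublets kept it had 9.

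Cell cycle genes rose in mural-like cells, 12 of 25 with a median of 2.22, against 6.06% of all genes of the class. Cdk1, the mitotic kinase, had 1.99, 3.87 and 7.24 CPM at day 1 and 50.7, 70.4 and 62.6 CPM at day 7 (log2 fold change 3.61, SE 0.43, adjusted p = 0.00444). Ube2c, which helps to degrade mitotic cyclins, had 11.9, 9.67 and 23.5 CPM and then 82.1, 178 and 126 CPM (log2 fold change 2.97, SE 0.44, adjusted p = 0.00610). The days did not overlap for either gene. Without day 1 library 2 the list had 5 calls, and without each of the other libraries it had 8 to 12. Mki67 and Top2a were among the 12.

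Matrix genes rose in mural-like cells too, 6 of 20 collagens (median 0.99) and 8 of 16 matricellular genes (median 1.45). Of all genes of the class, 6.06% were higher. Col3a1 had 150, 282 and 802 CPM at day 1 and 2827, 4004 and 4593 CPM at day 7 (log2 fold change 3.18, SE 0.56, adjusted p = 0.0129), a call lost without day 1 library 2. Fibroblast markers summed to 504 to 1225 CPM at day 1 and to 3468 to 7185 CPM at day 7 in these cells, with 4 of 6 rising, and blood EC markers to 477 to 1004 CPM and 864 to 2029 CPM, with 3 of 10 rising. Lymphatic EC markers summed to 4.97 to 45.2 CPM at day 1 and 92.8 to 783 CPM at day 7, with 1 of 2 tested rising. The part of other cells in the matrix and other genes of the class was not tested. The collagen calls were 9, 1 and 4 without day 1 libraries 1 to 3 and 4, 3 and 3 without day 7 libraries 1 to 3. The matricellular calls were 8, 1 and 3, and 8, 5 and 2, in the same order.

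Contractile genes of mural-like cells depended on 1 library. Tagln, a smooth muscle protein, had 10948, 104 and 263 CPM at day 1 and 3266, 3060 and 3390 CPM at day 7, and Acta2 (smooth muscle actin) had 6148, 130 and 171 CPM and then 2050, 1207 and 1092 CPM. Day 1 library 1 was far above, and the other day 1 libraries far below, all day 7 libraries. Of 16 contractile genes 1 rose, a share near that of all genes of the class (6.06%). It was Rgs5, a pericyte gene, which went from 66.6, 325 and 241 CPM to 1470, 1857 and 1258 CPM (log2 fold change 2.87, SE 0.49, adjusted p = 0.0102). Without day 1 library 1, 10 of the 16 were called. Fabp4, which carries fatty acids, rose 62.0-fold from 35.8, 30.9 and 17.5 CPM to 3267, 812 and 1600 CPM (adjusted p = 0.00258). The peptidase inhibitor Pi15 fell from 267, 267 and 184 CPM to 11.3, 14.4 and 10.8 CPM (log2 fold change -4.33, SE 0.34, adjusted p = 0.00146). Ptprn, of secretory granules, Nrgn, which binds calmodulin, and Dgat1, which makes triglycerides, fell 19.5-, 11.2- and 9.39-fold. Pi15, Ptprn, Nrgn and Dgat1 kept the call with any library left out, whereas the glycolytic Pfkl, which fell 10.8-fold, kept it without day 1 library 1 or 3 only. Fabp4, a gene also typical of capillary endothelium, kept its call with any library left out and lost it with doublets kept, as did Pfkl and Ccl5. Without a filter on low counts Cxcl11, Ubd, Ccl5 and Pfkl were not called, by voom Ubd and Ccl5 were not, and Ccl5 was not called at a resolution of 2 or with the size factors of DESeq2.

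In blood EC-like cells the chemokines Cxcl9, Cxcl11 and Cxcl10 rose, with the larger folds for Cxcl9 and Cxcl11. Cxcl9 had 6.38, 8.05 and 4.34 CPM at day 1 and 1552, 866 and 2672 CPM at day 7 (log2 fold change 7.97, SE 0.53, adjusted p = 0.0015), and it lost the call without day 1 library 2 only. Cxcl11 had 4.06, 1.15 and 1.45 CPM and then 815, 239 and 2235 CPM (log2 fold change 8.59, SE 1.15, adjusted p = 0.0302). Cxcl10 had 52.8, 64.4 and 14.5 CPM and then 463, 1193 and 1565 CPM (log2 fold change 4.53, SE 0.69, adjusted p = 0.0346). Cxcl11 lost the call without any 1 of the day 1 libraries or day 7 library 1, and Cxcl10 kept it without day 7 library 1 only. Of 28 interferon-stimulated genes, 8 rose, with a median of 2.95, and of 14 class I genes, 4 rose. Of all genes of the class, 1.58% were higher. The interferon list had 16, 0 and 0 calls without day 1 libraries 1 to 3 and 6, 2 and 0 without day 7 libraries 1 to 3, and the class I list 12, 0 and 0, and 1, 3 and 0. NK cell markers in these cells summed to 0 to 2.32 CPM at day 1 and 7.88 to 202 CPM at day 7, with Ncr1 and Eomes at 0 in every library, and T cell markers to 14.5 to 24.4 CPM and 16.3 to 220 CPM (0 of 1 tested rose). Their part was not tested. Vcam1, an adhesion molecule for leukocytes, had 9.28, 9.2 and 2.89 CPM at day 1 and 67.1, 45.8 and 91.1 CPM at day 7 (log2 fold change 3.07, SE 0.42, adjusted p = 0.0216), a call lost without day 1 library 2 or 3 or day 7 library 3. Thbd (thrombomodulin) and Cd34 rose as well, and Icam1, with 63.2, 52.9 and 55.0 CPM against 65.2, 214 and 178 CPM, did not pass (adjusted p = 0.109). That made 3 of 23 genes of endothelial activation, against 1.58% of all genes of the class. The list had 10, 0 and 0 calls without day 1 libraries 1 to 3 and 2, 1 and 0 without day 7 libraries 1 to 3. At day 1, 70.1% of the class lay in the cluster led by Tm4sf1 and Igfbp7 that held 96.1% of it at day 7.

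Other endothelial genes rose or fell without being on these lists. Serping1, the C1 inhibitor, rose 26.3-fold, from 9.86, 5.75 and 5.79 CPM to 121, 99.0 and 416 CPM (adjusted p = 0.0285), and lost the call without any 1 of the day 1 libraries. Fn1 rose 11.5-fold (adjusted p = 0.0410) and lost the call without any library. Fibroblast markers summed to 12.6 to 42.0 CPM at day 1 and 45.5 to 82.5 CPM at day 7 in these cells (0 of 2 tested rose), and mural markers to 16.1 to 55.1 CPM and 63.5 to 131 CPM (1 of 3 tested rose). Their part in Fn1 was not tested. Npw, the neuropeptide W precursor, fell from 312, 306 and 492 CPM to 93.8, 41.4 and 32.5 CPM (log2 fold change -2.76, SE 0.40, adjusted p = 0.0229). The sugar-metabolising Galk1 and Tpi1 fell 5.16- and 5.84-fold. Each of these 3 lost the call without day 1 library 2, day 1 library 3 or day 7 library 3, Npw also without day 7 library 2, Galk1 without day 7 library 1 and Tpi1 without day 7 library 1 or 2. Without a filter on low counts Cxcl10, Cxcl11, Gbp5, Serping1 and Fn1 were not called in blood EC-like cells, with doublets kept Fn1, Tpi1, Reg3g, Reg3b and Gpx2 were not, and at a resolution of 2 Tpi1 was not.

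In BEC-like cells edgeR called 50 genes, and Cxcl9 and Cxcl11 were among those of largest fold. DESeq2 called 860, voom 1510 and edgeR without a filter on low counts 344. At a clustering resolution of 2 none was called, so each BEC-like call given here was lost in that setting. There a cluster led by Reg3g, Reg3b and Gpx2 was left unnamed. With doublets in, it held 537, 161 and 269 cells at day 1 and 58, 26 and 48 at day 7, so that setting did not test the same cells. At the resolution of 1 used here, the BEC-like class was held by different clusters at the 2 days. At day 1, 56.5% of the cells lay in a cluster led by Reg3g, Reg3b and Gpx2 with 9 cycling markers detected and 40.8% in one led by Lypd8, Wfdc21 and Duoxa2, and at day 7, 86.0% lay in one led by Lypd8 and Mmp7. The libraries gave 1125, 992 and 1679 cells at day 1 and 1369, 123 and 1364 at day 7. Cxcl9 had 0.151, 0 and 0.162 CPM at day 1 and 203, 14.3 and 207 CPM at day 7 (log2 fold change 10.01, SE 1.24, adjusted p = 0.0420). Cxcl11 had 0.954, 0.357 and 0.269 CPM and then 143, 13.7 and 175 CPM (log2 fold change 7.45, SE 1.00, adjusted p = 0.0420). Day 7 library 2 was lowest at day 7 for both and still above every day 1 library. Neither was called without a filter on low counts. Gbp2 and Gbp5 rose, which was 2 of 30 interferon-stimulated genes (median 1.87), and RT1-S3, a class I gene, rose 6.18-fold, the 1 of 14 class I genes to pass (median 2.03). T cell markers summed to 3.03 to 4.62 CPM at day 1 and 4.37 to 94.5 CPM at day 7, and macrophage markers to 8.62 to 58.4 CPM and 108 to 320 CPM (0 of 3 and 0 of 6 tested rose). Their part was not tested. Cxcl9 and Cxcl11 were still called after free RNA was subtracted (log2 fold changes 10.9 and 7.58), a step that does not take out cells of other types or doublets.

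MHC class II stood out in BEC-like cells without passing the threshold. Cd74 had 54.8, 2.97 and 15.6 CPM at day 1 and 5355, 140 and 5901 CPM at day 7 (log2 fold change 7.03, SE 1.62, adjusted p = 0.0878). RT1-Da had 35.8, 1.55 and 5.82 CPM and then 2238, 58.0 and 2011 CPM (log2 fold change 6.39, SE 1.63, adjusted p = 0.102). None of the 7 class II genes passed in edgeR, while 7 had an unadjusted p under 0.05 and DESeq2 and voom called 7 each. Without day 7 library 2 edgeR called 6. Day 7 library 2, with 123 BEC-like cells, lay far below the other day 7 libraries and above the day 1 libraries for both genes. Of the 7 genes, 5 lay higher at day 7 without overlap. At day 7, NK cell markers summed to 56.4, 1.87 and 70.7 CPM in these cells. T cell markers summed to 48.6, 4.37 and 94.5 CPM and B cell markers to 7.89, 3.12 and 25.4 CPM. Macrophage markers summed to 134, 320 and 108 CPM and DC markers to 11.9, 13.1 and 9.11 CPM. The part of such cells in the class II genes was not tested.

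Among the 39 higher and 11 lower BEC-like genes, Apoe, Lgals3bp, Tmem123, Agr2 and Fabp5 were also named by size. Apoe, a lipid carrier and a gene of macrophages, had 13.8, 8.32 and 8.24 CPM at day 1 and 133, 281 and 128 CPM at day 7, or 16.1-fold higher, and it was no longer tested after subtraction of free RNA. Tmem123, a cell surface protein, had 50.8, 54.3 and 53.7 CPM and then 184, 203 and 228 CPM (log2 fold change 1.77, SE 0.20, adjusted p = 0.0420). Lgals3bp, a secreted glycoprotein, rose 4.16-fold. Agr2, which folds mucins and is among the goblet cell markers, fell from 2015, 1650 and 2502 CPM to 786, 379 and 615 CPM (log2 fold change -1.99, SE 0.31, adjusted p = 0.0426). Fabp5, which carries fatty acids, fell from 1106, 771 and 773 CPM to 259, 318 and 272 CPM (log2 fold change -1.81, SE 0.27, adjusted p = 0.0426). Akr1c15 and Pa2g4, next by p among lower genes, missed the threshold (adjusted p = 0.0524 for both). These 5 called genes, Cxcl11, Gbp2, Gbp5, RT1-S3 and Col3a1 kept the call only without day 1 library 1 or day 7 library 2, and Cxcl9 only without day 7 library 2. Of 14 genes of epithelial-mesenchymal transition (EMT), 1 passed, which was Col3a1 (median of the list 1.05), and none passed after free RNA was subtracted or with doublets kept. It had 4.52, 1.55 and 1.94 CPM and then 39.8, 18.1 and 19.8 CPM, beside a sum of fibroblast markers of 7.49 to 17.3 CPM at day 1 and 39.1 to 82.0 CPM at day 7 (2 of 6 tested rose), whose part was not tested.

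Biliary identity genes did not pass in edgeR in BEC-like cells. Krt7, Krt8, Krt18, Krt19, Cldn3, Cldn4, Epcam, Sox9 and Cftr are also among the markers that named the class. Cells that lost them could fall outside the class, so their levels within it cannot show such a loss. Krt7, a duct keratin, had 1780, 2175 and 2840 CPM at day 1 and 1875, 2516 and 1751 CPM at day 7 (log2 fold change -0.31, SE 0.30), and Krt19 had 161, 178 and 207 CPM and then 194, 173 and 216 CPM (-0.09, SE 0.21). Of 20 keratin, junction and lineage genes none passed in edgeR, 1 higher and 4 lower genes had an unadjusted p under 0.05, DESeq2 called 1 and voom 3, all lower, and the median was -0.28. Of 14 genes of bile acid, bicarbonate and fluid transport none passed in edgeR, 8 had an unadjusted p under 0.05, DESeq2 called 4 and voom 5, and the median was 0.75. Cftr, the chloride channel of bile secretion, had 30.8, 27.2 and 22.8 CPM and then 52.4, 58.6 and 84.6 CPM (log2 fold change 1.09, SE 0.24, adjusted p = 0.0762), without overlap. The antimicrobial lectin Reg3g had 12985, 19049 and 25200 CPM and then 4251, 7406 and 1629 CPM in these cells (log2 fold change -2.23, SE 0.58, adjusted p = 0.102).

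Glycolysis, hypoxia and cell cycle genes of BEC-like cells lay lower at day 7 but missed the adjusted threshold. Pgk1 had 1726, 6422 and 7208 CPM at day 1 and 519, 811 and 588 CPM at day 7 (log2 fold change -3.16, SE 0.55, adjusted p = 0.0598). Bnip3, a HIF target of mitochondrial clearance, had 39.5, 598 and 628 CPM and then 30.5, 38.7 and 26.1 CPM, with day 1 library 1 close to the day 7 values. Of 14 glycolysis genes none passed in edgeR (median -1.78), 12 had an unadjusted p under 0.05, and DESeq2 called 12 and voom 11. Of 20 HIF targets none passed (median -2.10), 12 had an unadjusted p under 0.05, and DESeq2 called 9 and voom 12. Of 29 cell cycle genes none passed (median -1.34), 22 had an unadjusted p under 0.05, and DESeq2 called 13 and voom 19. Without day 1 library 1 edgeR called 11 of the glycolysis genes, 13 of the HIF targets and 0 of the cell cycle genes. Without day 7 library 2 it called 3, 2 and 9. Cdk1 had 110, 72.4 and 85.8 CPM and then 12.9, 41.2 and 29.4 CPM (log2 fold change -1.89, SE 0.44, adjusted p = 0.0838).

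**Figure D4:**
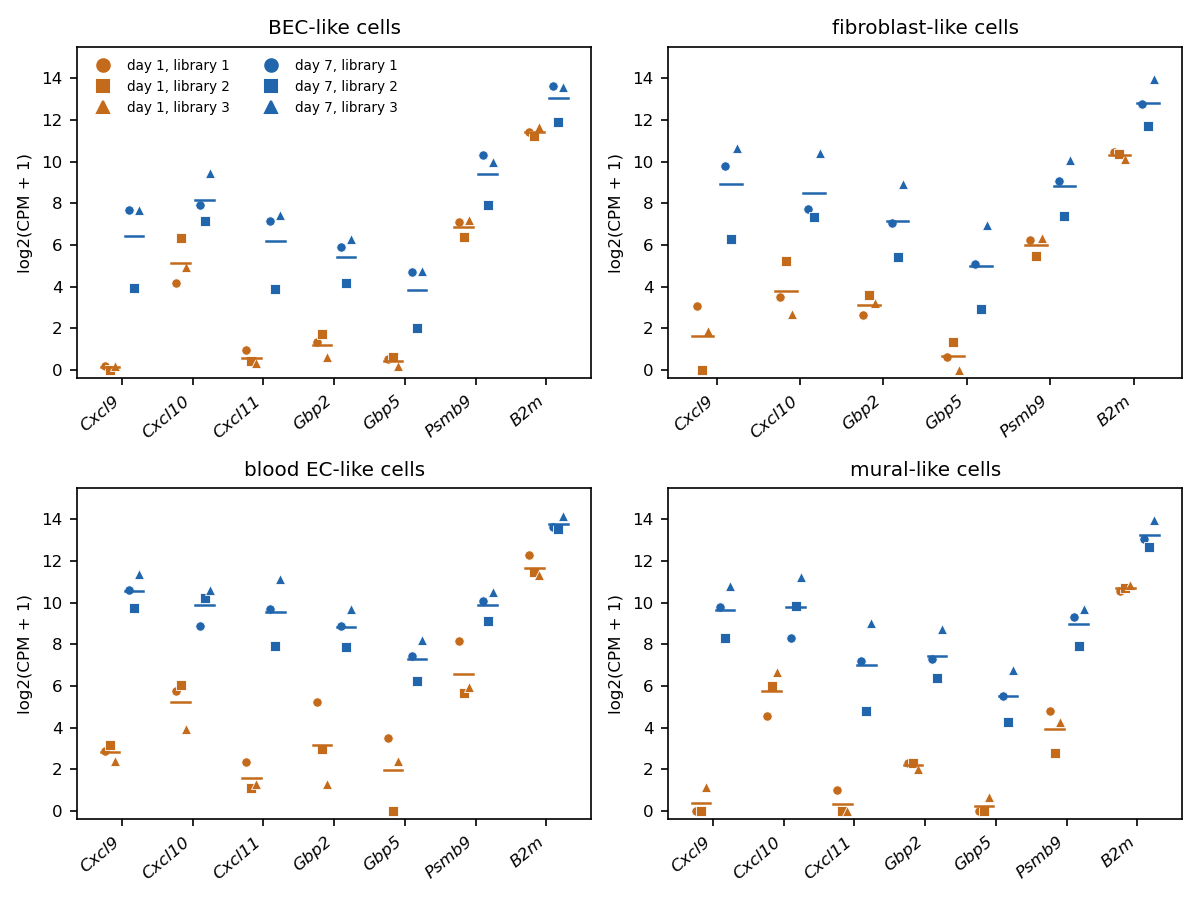
Levels of interferon-induced genes in 4 classes as log2(CPM + 1) (y axis), with day 1 in orange, day 7 in blue, symbols for library numbers and bars for the mean of 3 libraries. Cxcl9 sat at 0 to 8.05 CPM at day 1 in every panel and at 14.3 to 2672 CPM at day 7.

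In monocyte/macrophage-like cells edgeR called 8 genes, and the clusters were tied to libraries. The count was 255 with DESeq2, 22 with voom, 165 in macrophage-like clusters alone and 142 without day 7 library 2. At day 1, 42.6% lay in a cluster led by Vcan and Fcnb in which 776 of 883 cells came from day 1 library 1. At day 7, 33.9% lay in one in which 2674 of 3269 cells came from day 7 library 2, and 33.6% in one led by Apoe and C1qa. The class I gene RT1-CE10 had 415, 224 and 506 CPM at day 1 and 3183, 1935 and 2845 CPM at day 7 (log2 fold change 2.83, SE 0.31, adjusted p = 0.0155). It lost the call without day 1 library 1, day 1 library 3 or day 7 library 3. Cd5l, a gene of resident tissue macrophages, had 2 UMIs at day 1 and 24.2, 14.4 and 11.9 CPM at day 7, a ratio of 93.2 (95% counting interval 25.7 to 771, adjusted p = 0.00968), and lost the call without day 1 library 1 or 3. The other genes past the threshold, named after their values were seen, were Clec4f, a lectin of Kupffer cells, and the glutamate transporter Slc1a3 (higher), and Nrg4, a growth factor, Fetub, Wfdc15b and Reg3b (lower). Apoe had 1042, 121 and 2264 CPM and then 9171, 15896 and 15601 CPM without overlap, yet did not pass (adjusted p = 0.218). Cd74 had 1676, 289 and 2665 CPM and then 13721, 3323 and 13340 CPM (adjusted p = 0.283). The chemokine Ccl24 had 278, 169 and 86.6 CPM and then 25.9, 18.6 and 22.3 CPM (adjusted p = 0.0634). Of the next genes by p, B2m, RT1-A2, Lrg1, Reg3g and one listed as NEWGENE_2134 did not pass either (adjusted p from 0.0607 to 0.0979). In the macrophage-like clusters alone Ccl24 and Lrg1 turned in direction, with log2 fold changes of 1.25 and 2.23. Neutrophil markers summed to 7194 to 16622 CPM at day 1 and to 357 to 1411 CPM at day 7 in these cells (0 of 9 tested fell), and their part in these values was not tested. The cytokine gene Il1b had 940, 3947 and 2051 CPM and then 946, 2474 and 2089 CPM, which overlapped.

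In neutrophil-like cells the interferon-stimulated genes lay higher at day 7 but none passed. At day 1, 61.9% of the class lay in a cluster led by S100a8 and S100a9 and 35.2% in one led by Cxcl3 and Ca4, against 44.2% and 7.84% at day 7, while one led by Retnlg and S100a8 held 2.88% and 48.0%. These clusters were tied to libraries. With doublets in, 1876 of 3311 cells of the first came from day 1 library 1. In the cluster led by Cxcl3, 1187 of 1468 came from day 1 library 2, and in that led by Retnlg, 1043 of 1288 came from day 7 library 2. The 2 genes that did pass, named after their values were seen, were Ighm, the heavy chain of IgM antibodies, at 0.678, 1.01 and 0 CPM and then 55.3, 79.1 and 161 CPM, and the unnamed AABR07060872.1. Neither passed after free RNA was subtracted. Isg15, a ubiquitin-like antiviral protein, had 1889, 387 and 1529 CPM at day 1 and 2549, 12509 and 20688 CPM at day 7 (log2 fold change 3.48, SE 0.87, adjusted p = 0.364). Gbp2 had 101, 37.0 and 103 CPM and then 369, 398 and 1188 CPM (adjusted p = 0.243). Of 31 such genes, 0 passed in edgeR and voom, 26 had an unadjusted p under 0.05, and DESeq2 called 15, with a list median of 2.89. Without day 7 library 1, edgeR called 12. Rsad2, Psme2 and Tapbp also lay without overlap at higher levels and did not pass (adjusted p = 0.265 to 0.309). The alarmin S100a8 had 89124, 40528 and 43528 CPM and then 43306, 78910 and 48874 CPM, which overlapped.

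In NK&T-like cells the cell division genes Top2a, Ube2c and Pttg1 and the receptor genes Tnfrsf9 and Havcr2 were among the genes that rose. The class had 227, 25 and 146 cells at day 1 and 3445, 308 and 4059 at day 7, held by clusters in different proportions. At day 1, 56.8% lay in a cluster led by Cd3g and Ctsw and 38.2% in one led by Ccl5 and Gzma, against 33.5% and 23.0% at day 7. Clusters led by Gzma and Cd3d, by Lag3 and Cd3e, and by Gzma and Cd3e with 9 cycling markers detected were larger parts at day 7. They held 3.27%, 0.754% and 1.01% at day 1 and 20.95%, 15.2% and 7.33% at day 7. Top2a had 25.3, 35 and 36.2 CPM at day 1 and 119, 160 and 89.6 CPM at day 7 (log2 fold change 2.03, SE 0.37, adjusted p = 0.0175), and Ube2c and the mitotic regulator Pttg1 rose 3.88- and 3.83-fold. Top2a and Ube2c were 2 of 28 cell cycle genes (median 1.16). Tnfrsf9 (4-1BB, a receptor of activated T cells) had 82.7, 46.7 and 151 CPM and then 268, 342 and 552 CPM (log2 fold change 1.99, SE 0.38, adjusted p = 0.0208). Havcr2 (the checkpoint receptor TIM-3) had 2 UMIs at day 1 and 34.9, 14.6 and 30.4 CPM at day 7, a ratio of 20.2 (95% counting interval 5.59 to 167). Lag3, another checkpoint gene, had 96.5, 23.3 and 63.4 CPM and then 1568, 215 and 1348 CPM and did not pass (adjusted p = 0.244). Of 19 checkpoint and activation genes, Tnfrsf9 and Havcr2 rose, 0 fell and the median was 0.82. Log2 fold changes were positive for 14 and negative for 5, and 9 higher and 3 lower had an unadjusted p under 0.05. Without overlap, 7 lay higher and 2 lower. Stx11, used in granule release, rose 5.92-fold and the class I gene RT1-CE10 rose from 860, 409 and 664 CPM to 2355, 1939 and 2206 CPM (log2 fold change 1.73, SE 0.29). Ckb, a creatine kinase, fell from 249, 233 and 305 CPM to 87.6, 94.4 and 76.3 CPM (log2 fold change -1.59, SE 0.28). Each gene called here lost its call without day 1 library 3, and without day 1 library 2 except Apoe. Top2a, Tnfrsf9, Havcr2 and Stx11 lost it also without day 1 library 1, and Tnfrsf9, Havcr2, Stx11, Pttg1 and Ckb without day 7 library 3. Apoe rose 7.32-fold, a call lost without day 1 library 3, beside macrophage markers of 6.04 to 163 CPM at day 1 and 49.9 to 169 CPM at day 7 (0 of 3 tested rose), and was no longer tested after subtraction of free RNA. Voom did not call Top2a, Tnfrsf9, Pttg1 or Stx11, and Stx11 was not called with library sizes alone. Of 10 cytotoxic effectors none passed in edgeR, DESeq2 or voom, and 2 had an unadjusted p under 0.05 (median 0.19). Nkg7 had 1624, 852 and 1014 CPM and then 2272, 2030 and 2091 CPM (adjusted p = 0.247).

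Reg3g and Reg3b, known as antimicrobial lectins of epithelium, lay lower at day 7 without overlap in each of the 7 classes tested. Gpx2 did so too except in BEC-like and mural-like cells, where the days overlapped. In blood EC-like cells Reg3b fell from 53.3, 149 and 123 CPM to 4.52, 0.985 and 0 CPM (adjusted p = 0.0216). Reg3g passed in fibroblast-like, blood EC-like, mural-like and NK&T-like cells and over all cells, with log2 fold changes of -4.62 to -4.94. Sums of BEC markers went from 234 to 394 CPM to 52.0 to 139 CPM in fibroblast-like cells (3 of 6 tested fell) and from 139 to 313 CPM to 9.85 to 56.2 CPM in blood EC-like cells (3 of 4 tested fell). In mural-like cells they overlapped between the days, with 82.5, 246 and 159 CPM at day 1 and 254, 18.2 and 458 CPM at day 7 (0 of 5 tested fell). After subtraction of free RNA, Reg3g and Gpx2 were no longer testable in fibroblast-like, blood EC-like and mural-like cells. In NK&T-like cells Reg3g and Reg3b no longer passed (adjusted p = 0.503 and 0.194, edgeR). The free RNA estimate in this class was 3.61%, 0% and 0% at day 1 and 3.51%, 2.88% and 3.13% at day 7. Nothing was thus subtracted in day 1 libraries 2 and 3, so this step could not measure the part of free RNA in these differences, which was not tested.

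Over all cells, Il2rg, Cd69 and B2m were among the 51 genes that rose, and Reg3g and Gpx2 were among the 38 that fell. In such sums, fewer cells of a type and less RNA per cell cannot be told apart. Il2rg, a receptor chain shared by lymphocyte cytokines, had 17.6, 9.31 and 16.3 CPM at day 1 and 142, 73.3 and 143 CPM at day 7 (log2 fold change 3.10, SE 0.35, adjusted p = 0.0374), against 25.2 to 33.4 CPM in the sham libraries. Cd69, an early activation antigen, had 17.3, 15.6 and 12.5 CPM and then 139, 59.3 and 191 CPM (log2 fold change 3.13, SE 0.43, adjusted p = 0.0446; sham 16.5 to 98.2 CPM). B2m had 4280, 2736 and 3279 CPM and then 10182, 9415 and 13096 CPM (log2 fold change 1.74, SE 0.26, adjusted p = 0.0496), and the sham libraries had 2982 to 4042 CPM, near the day 1 level. Rgcc, Ets1, Fyn, Nr4a2, Slfn5 and RT1-CE10 rose 3.39- to 6.68-fold. In sham, Rgcc had 127 to 507 CPM, Ets1 47.7 to 83.9 CPM, Nr4a2 90.0 to 223 CPM and Slfn5 122 to 155 CPM. For these genes sham lay above all day 1 libraries and overlapped day 7. Sham Fyn (50.2 to 68.7 CPM) lay between the days, and sham RT1-CE10 (159 to 409 CPM) was near the day 1 level. Jchain, which joins antibody units, had 0.537, 0.0763 and 0.405 CPM and then 61.3, 11 and 41.7 CPM (log2 fold change 6.72, SE 0.85, adjusted p = 0.0378).

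Reg3g fell over all cells from 5392, 13850 and 18708 CPM to 853, 328 and 264 CPM (log2 fold change -4.68, SE 0.62, adjusted p = 0.0425), with 851 to 1198 CPM in sham. Gpx2, a gut and bile duct glutathione peroxidase, fell from 3731, 6601 and 6141 CPM to 667, 419 and 733 CPM (log2 fold change -3.12, SE 0.31, adjusted p = 0.0374), with 925 to 1539 CPM in sham. Both stood above all sham libraries at day 1, and Gpx2 stood below all of them at day 7. Cela1 (an elastase), the complement inhibitors Cd59 and Clu, the membrane-binding Anxa2, the glutathione transferase Gstt3, the clathrin chain Cltb and the sterol synthesis genes Msmo1 and Fdps fell 2.88- to 5.65-fold. Among these, sham Cela1 (78.4 to 131 CPM) and Gstt3 (116 to 162 CPM) overlapped day 1, while sham Cd59 (86.2 to 181 CPM) lay below day 1. All 19 of the genes named by size over all cells lost the call without day 1 library 2, day 1 library 3, day 7 library 1 or day 7 library 3, and kept it without day 1 library 1 or day 7 library 2, and Jchain did the same. With the size factors of DESeq2 in place of TMM, edgeR no longer called Cd69, RT1-CE10, Ets1, Nr4a2, B2m, Clu and Fdps over all cells, and with library sizes alone it no longer called RT1-CE10, Ets1, Slfn5, Clu and Cltb. With cells of at least 1000 UMIs RT1-CE10, Nr4a2, B2m and Clu did not pass. Col1a1 over all cells had 268, 83.7 and 165 CPM at day 1, 1471, 2241 and 425 CPM at day 7 and 653, 8049 and 9395 CPM in sham. Its day 1 libraries and day 7 library 3 lay below all sham libraries, and the other day 7 libraries lay within the sham range.

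Crem and Vim, a cAMP-responsive transcription factor and the intermediate filament vimentin, did not pass in edgeR in any class or over all cells. Over all cells Crem was called by DESeq2 (log2 fold change 1.78) and voom (1.93). Voom called Vim in BEC-like cells (1.60) and in the sums of all cells (1.62). Voom, and edgeR without day 1 library 1, also called Vim higher in fibroblast-like and lower in blood EC-like cells. Over all cells Crem had 149, 164 and 81.5 CPM at day 1 and 284, 391 and 650 CPM at day 7, without overlap (log2 fold change 1.82, SE 0.45, adjusted p = 0.0707). The sham libraries had 140 to 227 CPM. Within classes its log2 fold change was 1.14 (SE 0.40) in BEC-like, 1.12 (SE 0.39) in monocyte/macrophage-like, 0.62 (SE 0.32) in blood EC-like and 0.57 (SE 0.32) in fibroblast-like cells. It was 0.28 (SE 0.39) in neutrophil-like, 0.07 (SE 0.30) in NK&T-like and -0.12 (SE 0.29) in mural-like cells, and the sign of the last 2 changed with the processing. The BEC-like libraries had 14.0, 17.3 and 15.3 CPM at day 1 and 25.3, 21.8 and 69.7 CPM at day 7. Crem was at 818 to 1281 CPM in the neutrophil-like libraries, a level above that of the same gene in each BEC-like library. Vim over all cells had 1362, 516 and 557 CPM and then 1535, 3429 and 1232 CPM, which overlapped (log2 fold change 1.47, SE 0.60, adjusted p = 0.179), and 1273 to 2638 CPM in sham. In BEC-like cells it had 55.7, 35 and 22.7 CPM and then 49.9, 168 and 98.2 CPM (log2 fold change 1.33, SE 0.52, adjusted p = 0.214). In fibroblast-like cells it had 2520, 1295 and 1285 CPM and then 2949, 2764 and 2829 CPM (log2 fold change 0.61, SE 0.36, adjusted p = 0.257). Over the alternatives the BEC-like change of Crem (as reported 1.14) ranged from 0.45 without day 7 library 3 and 0.54 after subtraction of free RNA to 1.69 with doublets kept. That of Vim (1.33) ranged from 0.55 after subtraction of free RNA and 0.70 without day 7 library 2 to 1.79 with doublets kept and 2.09 at a resolution of 2. Over all cells Vim had 0.72 without day 7 library 2 and 2.10 without day 1 library 1.

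In the other gene lists few or no genes passed in edgeR. Over all cells none of 10 class II genes passed in edgeR, although 9 had an unadjusted p under 0.05 and DESeq2 and voom called 9 and 10 (median 3.78). The same held for 32 interferon-stimulated genes (21 unadjusted, 20 by DESeq2 and 17 by voom, median 2.11) and 20 biliary keratin, junction and lineage genes (16 unadjusted and 15 by each other tool, all lower, median -2.03). In BEC-like cells C1s, a protease of the classical complement pathway, was the 1 of 15 complement genes to rise (log2 fold change 3.57, median of the list 2.14), and it kept the call without day 1 library 1 or day 7 library 2 only. Of 16 genes of the unfolded protein response in BEC-like cells none passed in edgeR, 7 had an unadjusted p under 0.05, DESeq2 called 5 and voom 7, all lower (median -0.63). Of 21 TGF-beta genes in BEC-like cells none passed in edgeR or DESeq2, 1 had an unadjusted p under 0.05 and voom called 1 (median 0.41). Of 18 NRF2 targets, which guard against oxidative stress, none passed in edgeR or DESeq2, 3 had an unadjusted p under 0.05 and voom called 2 (median 0.05). Of 19 mucosal defence genes none passed in edgeR, 10 had an unadjusted p under 0.05, DESeq2 called 5 and voom 7, and the median was -0.15 under TMM and 0.05 with library sizes alone. With library sizes alone the median of all genes in BEC-like cells was 0.22, against 0.02 under TMM.

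In monocyte/macrophage-like cells Cd5l was the 1 of 20 macrophage scavenger and repair genes to pass (median 0.76). Of 10 class II genes none passed in edgeR or voom, 6 had an unadjusted p under 0.05 and DESeq2 called 6 (median 2.88). Of 14 glycolysis genes none passed in edgeR, 8 had an unadjusted p under 0.05, all lower, DESeq2 called 5 and voom 1 (median -1.19). Of 14 CC chemokines and receptors none passed in edgeR or voom, 6 had an unadjusted p under 0.05 and DESeq2 called 6, 2 higher and 4 lower (median -0.21). Ccl2, which draws monocytes, had 1115, 4616 and 2948 CPM and then 530, 1139 and 485 CPM (adjusted p = 0.312). In fibroblast-like cells 4 of 24 immediate early and heat shock genes passed, with Egr2 and Atf3 higher and Fosl1 and Hspa8 lower, a share near that of all genes of the class (9.82% higher and 7.22% lower). The heat map of list medians sets these lists side by side over the classes.

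**Figure D5:**
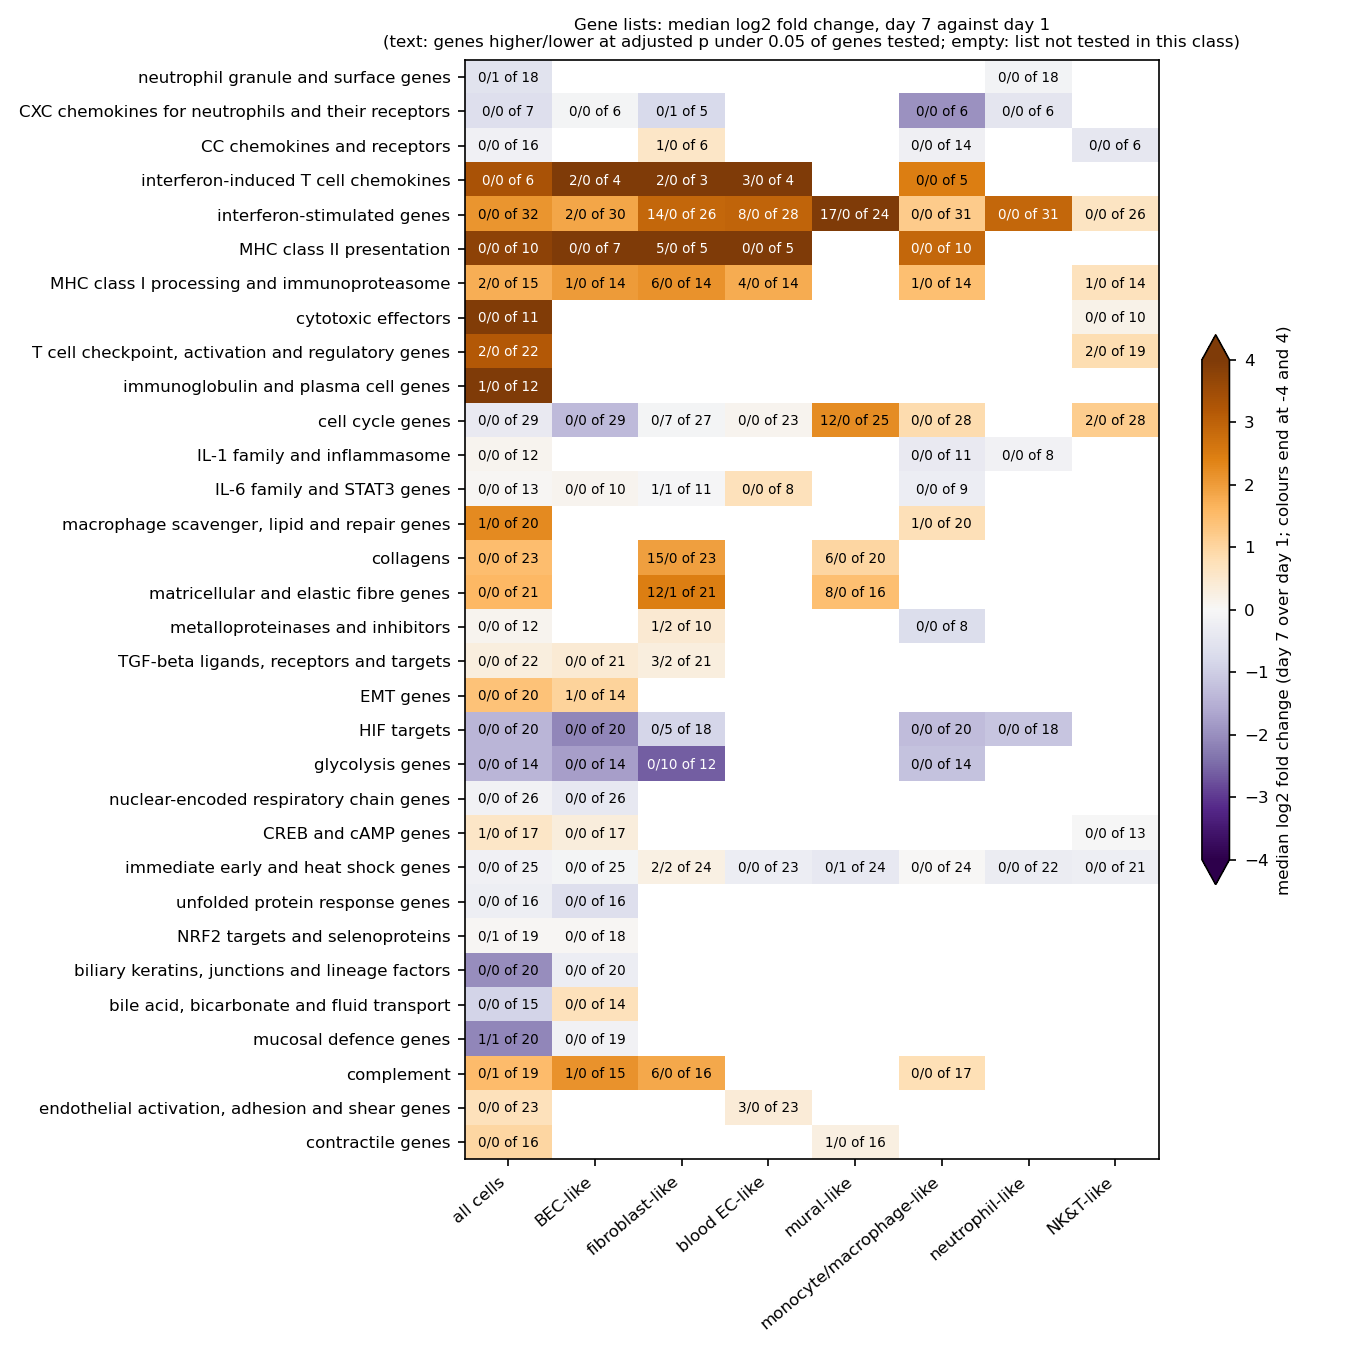
Median log2 fold change of each gene list in each class (colour, orange higher and purple lower at day 7, ending at -4 and 4), with the numbers of genes higher and lower at an adjusted p under 0.05 and of genes tested in each cell. Interferon-stimulated genes had 17 of 24 higher in mural-like and 14 of 26 in fibroblast-like cells, while 10 of 12 glycolysis genes were lower in fibroblast-like cells.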

How the data were processed

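Bile duct tissue was minced and digested with collagenases, dispase and DNase, strained, freed of red and dead cells, and sequenced with droplet 3' single-cell chemistry. The deposited matrices hold raw UMI counts per gene and barcode made by the authors with Cell Ranger (5.0.1 in the submitters' processing notes, which also name Seurat 3.2.0), and no cell annotation was used. The genome build is not given in the sources used here. The authors' methods name steps for free RNA and doublets, but the deposited counts are unfiltered.

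Counts of genes with the same symbol were added, leaving 23836 symbols of 23999 features. Doublets were marked in each library by simulated doublets. Cells were grouped by Leiden clustering (resolution 1, 30 principal components, 2000 variable genes, with 477 listed genes left out that were no markers) and named where at least 3 markers were detected. How clusters of joined classes were named was changed after the clusters were seen. Members and lists were chosen with earlier results of these data known. Sums per library were tested with edgeR 4.0.16 (quasi-likelihood, TMM, filterByExpr, Benjamini-Hochberg adjustment over all genes tested, calls under 0.05) in R 4.3.3, and per-library values are CPM without TMM. A class needed 20 cells in at least 2 libraries of each day. Named genes were, per direction, the 6 of largest log2 fold change in a class (12 over all cells) among called genes without overlap between days, at least 1 in log2 fold change and with a mean of at least 50 CPM, leaving out ribosomal, mitochondrial and unnamed genes. Where fewer than 4 passed in a direction, genes of smallest p filled it up to 4. Crem, Vim and 2 to 4 members of each list were named as well, and the values of a few genes are not reported here. Shares were compared with two-sided exact permutation tests. Where a day had 1 to 3 UMIs, the ratio carries a 95% counting interval, which covers counting error only, and at 0 UMIs a bound against 3 UMIs was used. Free RNA was estimated from barcodes with at most 100 UMIs and subtracted as an alternative. Alternatives also used DESeq2 1.42.0 and limma 3.58.1 (voom). Scripts were tested on simulated data. Same-numbered libraries of the 2 days deviated together with correlations of 0.00661, 0.113 and 0.114 over genes, so the numbers were not taken as pairs.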

Additional observations from a re-analysis of the deposited data

How the results depend on the processing

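Counts of genes past the threshold are given in the order all cells, BEC-like, fibroblast-like, blood EC-like, mural-like, monocyte/macrophage-like, neutrophil-like and NK&T-like cells. As reported they were 89, 50, 1527, 208, 653, 8, 2 and 32. DESeq2 called 2694, 860, 1631, 485, 794, 255, 65 and 73. Voom with quality weights called 3308, 1510, 2111, 1097, 1247, 22, 3 and 19. Without a filter on low counts edgeR called 172, 344, 1615, 488, 1075, 67, 174 and 191. With library sizes in place of TMM it called 60, 147, 1446, 257, 551, 23, 6 and 30, and the split of monocyte/macrophage-like calls moved from 4 higher and 4 lower to 8 and 15. With the size factors of DESeq2 it called 60, 53, 1542, 207, 663, 6, 2 and 31. At a Leiden resolution of 2 BEC-like calls fell to 0 and mural-like calls to 425, and with doublets kept mural-like calls were 396 and BEC-like calls 68. The BEC-like class at a resolution of 2 lacked a cluster led by Reg3g, Reg3b and Gpx2, which was left unnamed. After free RNA was subtracted neutrophil-like calls were 0 and the other classes stayed within 1.5 times of the reported counts. Macrophage-like clusters alone, an alternative chosen after seeing the data, gave 165 calls. The causes were not tested.

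Leaving out 1 library at a time gave 0 to 1144 calls over all cells, 0 to 464 in BEC-like, 502 to 1459 in fibroblast-like, 0 to 1100 in blood EC-like, 197 to 873 in mural-like, 0 to 142 in monocyte/macrophage-like, 1 to 46 in neutrophil-like and 3 to 88 in NK&T-like cells. In the fits with the replicate number as a block, edgeR called 154, 151, 1381, 277, 800, 399, 2 and 79 genes in the same order. The numbers are shared names and the libraries were not paired by them. Among others, Cd69, B2m and Reg3g over all cells, Reg3g in NK&T-like cells, and Cd74 and Ptx3 in fibroblast-like cells were not called with the block.

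Crem over all cells passed with DESeq2 (log2 fold change 1.78) and voom (1.93), and Vim passed with voom in BEC-like cells (1.60) and in the sums of all cells (1.62). Signs of changes that did not pass turned for Crem in mural-like cells with doublets kept (0.094) and at a resolution of 2 (0.0075), for Crem in NK&T-like cells with library sizes (-0.010) and voom (-0.0088), and for Vim in monocyte/macrophage-like cells without a filter (0.035). Without 1 library at a time, log2 fold changes that did not pass as reported ranged from -0.397 to 0.099 (Crem, mural-like cells), from -0.19 to 0.30 (Crem, NK&T-like cells), from -0.39 to 0.19 (Vim, monocyte/macrophage-like cells) and from -0.044 to 0.53 (Vim, neutrophil-like cells). In macrophage-like clusters alone Vim (1.44), Ccl24 (1.25) and Lrg1 (2.23) were higher at day 7, opposite to the joined class. As a share of UMIs the difference in BEC-like cells was -47.8 percentage points, against -25.1 as a share of cells. Of the single named genes under all alternatives, 1107 values kept direction and side of the threshold, 308 lost the call, 89 gained it and 15 turned sign. The B-like class had too few day 1 cells to be fitted as reported, and no fit of it is given for the alternatives. With doublets kept, its cluster held 64, 13 and 27 cells in the day 1 libraries. That would meet the stated minimum of cells for a class, but the class was not tested in that setting.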
